A study of Mus musculus with 2 samples.

Results

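Pou5f1, Sox2, Sall4 and Utf1 are 4 nuclear factors that mouse pluripotent cells use in both naïve and later states, and their transcripts are 4 of the 32286 features counted in each of 2 single-cell RNA sequencing (scRNA-seq) libraries. Pou5f1 encodes OCT4, a POU-domain transcription factor, and Sox2 encodes an HMG-box factor that binds DNA beside OCT4 at composite sites. Sall4 encodes a zinc-finger factor found in complexes with OCT4, and Utf1 encodes a chromatin-bound protein whose gene is a classic target of the OCT4 and SOX2 pair. As embryonic stem cells (ESCs) leave the naïve state and become epiblast-like cells (EpiLCs), a model of formative pluripotency, general factors of this kind are usually kept while naïve factors are lost.

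Each library was a mixture, in equal cell numbers, of Cnot8 knockout (KO) cells and wild-type (WT) cells with the ROSA mT/mG reporter, from which tdTomato is transcribed, strain ICR by the label. CNOT8 is an enzyme subunit of Ccr4-Not, the complex that trims poly(A) tails of mRNAs. The ESC library (0 h) held cells grown on feeders in medium with serum and LIF, and the 48h-EpiLC library (48 h) held cells grown on Matrigel in N2B27 with activin A, bFGF and KSR. The genotype label of both mixtures reads wild type, although their titles name both lines, and by the methods of the study EpiLCs were made from cells kept in 2i/LIF, a serum-free medium with kinase inhibitors, and not from serum/LIF cells. By the same methods, the KO line was derived from a blastocyst of heterozygous parents, as a picked colony, and therefore stands for 1 line. There was 1 library per stage and 1 culture per line in each, so stage and library cannot be told apart, genotype cannot be told apart from any other difference between the lines, and no test between groups was possible.

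A cell was kept if at least 1000 genes were detected in it and no more than 10% of its unique molecular identifiers (UMIs, each 1 counted transcript molecule) were mitochondrial, which left 11054 of 13184 ESC barcodes and 9400 of 12427 48h-EpiLC barcodes. A kept cell was assigned to WT if it had at least 1 tdTomato UMI and none of the Y-linked genes Ddx3y, Eif2s3y, Kdm5d and Uty. It was assigned to KO if it had no tdTomato UMI and at least 2 UMIs of these Y-linked genes. This gave 435 WT and 2978 KO cells in the ESC library, and 368 WT and 2977 KO cells in the 48h-EpiLC library. The other 7641 ESCs and 6055 48h-EpiLCs met neither rule, and among them 82 and 84 cells had both a tdTomato UMI and a Y-linked UMI. The rule separates the lines by Y-linked transcripts, so differences that go with the Y chromosome cannot be told apart from genotype. Median depth was 13151 UMIs in WT and 13368 in KO ESCs, and 15598 in WT and 17628 in KO 48h-EpiLCs.

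Levels are given in CPM, the UMIs of a gene per 1000000 UMIs of the cells summed. The targeted gene gave no check of the KO call. Cnot8 was counted at 43.1 CPM in WT and 72.1 CPM in KO ESCs. In 48h-EpiLCs it was counted at 49.7 CPM in WT and 62.6 CPM in KO cells. All 9 markers fixed for pluripotent cells were at 20 CPM or more in 3 classes and 8 of 9 in KO 48h-EpiLCs. The feeder fibroblast markers summed to 47.1 CPM in KO against 18.8 CPM in WT ESCs, with none of 9 and 2 of 9 (Col6a1 and Lum) at 0. The primitive endoderm markers summed to 55.5 against 38.7 CPM, with none of 10 at 0 in either. In 48h-EpiLCs the feeder list summed to 13.3 CPM in WT, with 4 of 9 at 0, and 17.4 CPM in KO. No marker of these lists reached 20 CPM in any class.

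The genes lie on 4 chromosomes of GRCm38. Pou5f1 (ENSMUSG00000024406) is at chr17:35506018-35510772 on the plus strand, within the major histocompatibility region. Sox2 (ENSMUSG00000074637) is a single-exon gene at chr3:34650405-34652461 on the plus strand, inside the span of a noncoding gene of the same strand, Sox2ot. Sall4 (ENSMUSG00000027547) is at chr2:168748332-168767943 on the minus strand, and Utf1 (ENSMUSG00000047751) is at chr7:139943789-139945112 on the plus strand. Sox2ot was counted at 0.804 to 1.95 CPM over the 4 classes, and the opposite-strand genes that overlap Pou5f1 (Gm19553) and Sall4 (Gm14261) at up to 0.567 and 0.650 CPM. Windows of 60 bases in the last 400 bases of each longest coding transcript were sought in transcripts of other genes in both orientations. For Pou5f1, 112 of 341 were also found in Gm19553, which overlaps it on the opposite strand. None for the other 3 genes was found in another gene.

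Because Cnot8 belongs to a machinery that acts on mRNA tails, and because the libraries count mRNA from its 3′ end, the 3′ untranslated regions (UTRs) were searched for 2 motifs on the RNA strand. These were the AU-rich pentamer ATTTA and the Pumilio element TGTANATA, both written as DNA. The longest coding transcript of Sox2 has 1086 bases of 3′ UTR, that of Sall4 1697, that of Pou5f1 221 and that of Utf1 122. Sox2 held 4 pentamers and 1 Pumilio element, Sall4 held 1 pentamer, and neither motif occurred in Pou5f1 or Utf1. Of 3′ UTRs with 0.8 to 1.25 times the length of the one searched, the pentamer was present in 78.1% for Sox2, 88.0% for Sall4, 27.8% for Pou5f1 and 16.3% for Utf1, and the Pumilio element in 22.2%, 30.8%, 4.55% and 3.28%. A match is a description of the sequence and not a measured site. The Sox2 Pumilio match and the pentamer nearest to it, and the single Sall4 pentamer, are shown with the motif in capitals and in transcript orientation.
Sox2 Pumilio element, chr3:34652341-34652366, plus strand: gagaatccaTGTATATAtttgaacta
Sox2 pentamer, chr3:34652139-34652161, plus strand: tcgttggtaATTTAtaatagctt
Sall4 pentamer, chr2:168748940-168748962, minus strand: agggctttaATTTAtctacctca

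The 250 bases before the RefSeq start of Pou5f1 and of Sox2 are shown because the balance of this pair is followed through the results, and because both factors are known to act on their own genes. They were searched on both strands for ATGCAAA, the core of the octamer that POU factors bind, and CATTGT, a core that SOX factors bind, and any match is in capitals. The octamer core was found in 4.12% and the SOX core in 10.7% of 32851 promoters of the same length. Sox2 held 1 octamer core, and the first of 2 RefSeq starts of Pou5f1 held neither motif. The second Pou5f1 start (chr17:35508557-35508806) held 1 SOX core, Utf1 held neither, and Sall4 was not in the table of promoters. The windows say nothing of enhancers further away, where composite sites of these genes are known.
Pou5f1, chr17:35505782-35506031, plus strand: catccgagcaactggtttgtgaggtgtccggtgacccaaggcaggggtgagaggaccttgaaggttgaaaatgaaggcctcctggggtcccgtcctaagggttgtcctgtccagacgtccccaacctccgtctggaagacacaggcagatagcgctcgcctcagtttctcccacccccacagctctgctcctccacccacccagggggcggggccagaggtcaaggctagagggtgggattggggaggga
Sox2, chr3:34649745-34649994, plus strand: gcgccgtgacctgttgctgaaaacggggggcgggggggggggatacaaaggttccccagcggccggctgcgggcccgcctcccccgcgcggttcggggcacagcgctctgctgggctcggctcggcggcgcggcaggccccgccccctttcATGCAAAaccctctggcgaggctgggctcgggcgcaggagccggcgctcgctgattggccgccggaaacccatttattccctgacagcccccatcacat

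Of the 4 genes, Sox2 and Sall4 were lower in 48h-EpiLCs than in ESCs of both lines by more than 1.5-fold, whereas Pou5f1 and Utf1 differed by less than that. Levels below are UMIs of a gene summed over the cells of a class and scaled to the UMI total of that class, with exact 95% Poisson intervals that cover counting error only. They are not scaled to transcript length and are not compared between genes.

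Pou5f1 was at 99.8 CPM (92.0 to 108) in WT ESCs and 75.5 CPM (73.0 to 78.1) in KO ESCs. It was at 109 CPM (101 to 118) in WT and 82.4 CPM (80.1 to 84.8) in KO 48h-EpiLCs. The KO values lay below the WT values at both stages, and the intervals of the lines did not overlap. The intervals of the stages overlapped in WT.

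Sox2 was at 269 CPM (257 to 283) in WT ESCs and 237 CPM (233 to 242) in KO ESCs. It was at 95.02 CPM (87.5 to 103) in WT and 129 CPM (126 to 131) in KO 48h-EpiLCs. WT cells therefore held the higher Sox2 level in the ESC library and the lower one in the 48h-EpiLC library, with no overlap of intervals among the 4 classes.

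Sall4 was at 149 CPM (140 to 159) in WT ESCs and 179 CPM (175 to 183) in KO ESCs. In 48h-EpiLCs it was at 85.2 CPM (78.1 to 92.8) in WT and 85.0 CPM (82.7 to 87.4) in KO, where the lines overlapped.

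Utf1 was at 653 CPM (633 to 674) in WT and 774 CPM (766 to 782) in KO ESCs, and at 766 CPM (745 to 788) in WT and 937 CPM (930 to 945) in KO 48h-EpiLCs. Its order was WT ESCs lowest and KO 48h-EpiLCs highest, and the classes in between, KO ESCs and WT 48h-EpiLCs, did not differ beyond their intervals.

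**Figure D1:**
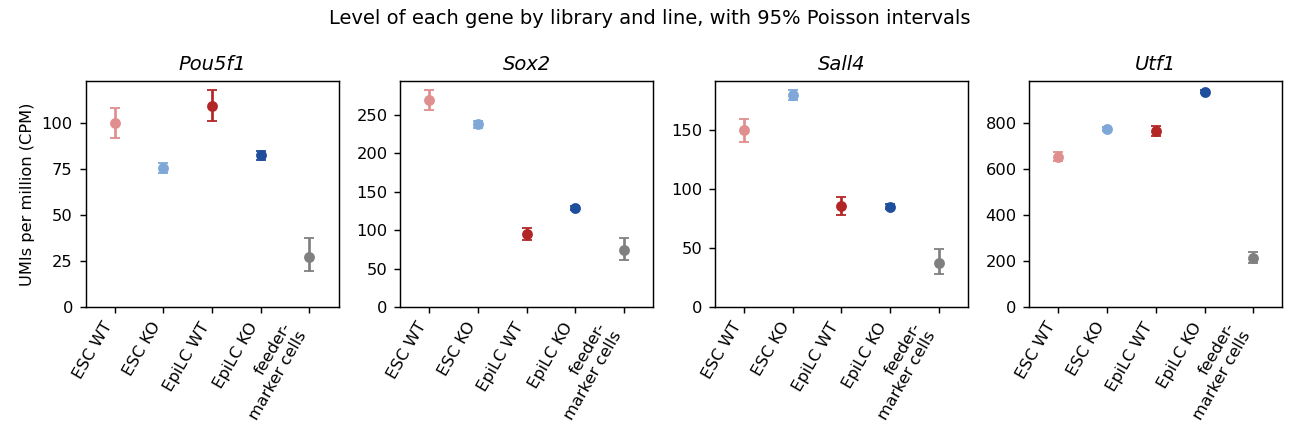
Level of each gene in CPM (vertical axis) in WT and KO cells of the ESC and 48h-EpiLC libraries, and in ESC-library cells with at least 5 feeder markers, with bars for 95% Poisson intervals. Sox2 was at 269 (WT) and 237 (KO) CPM in ESCs, against 95.02 (WT) and 129 (KO) CPM in 48h-EpiLCs, Pou5f1 stayed between 75.5 and 109 CPM, and feeder-marker cells were the lowest for each gene.

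Background from free RNA or mixed droplets was judged in 83 cells of the ESC library with at least 5 of 9 feeder markers, 31 of which carried enough Y-linked UMIs to be in the KO class and none of which was in the WT class. These cells had a median of 16713 UMIs and held 27.4 CPM (19.6 to 37.3) of Pou5f1, 73.9 CPM (60.6 to 89.3) of Sox2, 37.6 CPM (28.4 to 49.0) of Sall4 and 213 CPM (190 to 238) of Utf1. For shares of cells at equal depth, each cell was thinned to 5000 UMIs, which left out 1 WT and 23 KO ESCs, 1 WT and 9 KO 48h-EpiLCs, and left 80 feeder-marker cells.

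At that depth Pou5f1 was detected in 37.3% (32.8 to 42.1) of WT and 30.5% (28.8 to 32.2) of KO ESCs, and in 41.1% (36.1 to 46.4) of WT and 32.7% (31.0 to 34.4) of KO 48h-EpiLCs, against 12.5% (6.16 to 21.8) of feeder-marker cells. Sox2 was detected in 72.6% (68.1 to 76.7) and 63.4% (61.6 to 65.1) of WT and KO ESCs and in 32.4% (27.7 to 37.5) and 44.4% (42.6 to 46.2) of WT and KO 48h-EpiLCs, against 18.8% (10.9 to 29.0). Every class lay above the feeder-marker cells for these genes, although the interval of Sox2 in WT 48h-EpiLCs met theirs. Sall4 was detected in 45.9% and 57.4% of WT and KO ESCs and in 36.0% and 34.9% of WT and KO 48h-EpiLCs, against 11.3%. Utf1 was detected in 94.0% to 98.6% of cells in the 4 classes, against 36.3%. With all UMIs, the genes were detected in 62.9% to 82.9% (Pou5f1), 63.6% to 91.3% (Sox2), 72.6% to 87.3% (Sall4) and 98.7% to 99.8% (Utf1) of cells of the 4 classes, against 32.5%, 39.8%, 30.1% and 56.6% of feeder-marker cells. The 48h-EpiLC library held 0 cells with at least 5 feeder markers, so its background was read from the ESC library. The median UMIs per cell were 1 to 2 for Pou5f1, 1 to 3 for Sox2, 1 to 2 for Sall4 and 9 to 17 for Utf1, so a cell without a Pou5f1 UMI cannot be read as a cell without OCT4.

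The first comparison asked how KO and WT cells of the ESC library differed. Pou5f1 was 1.32-fold lower in KO cells (log2 ratio -0.40, exact 95% interval -0.53 to -0.28) and Sox2 was 1.14-fold lower (-0.18, -0.26 to -0.11). Sall4 was 1.20-fold higher (0.26, 0.16 to 0.36) and Utf1 was 1.18-fold higher (0.24, 0.20 to 0.29). None of the 4 passed 1.5-fold, against 13.8% of 9273 genes that were higher and 5.60% that were lower in KO cells by more than that. The median of all these genes was 0.13. Under the trimmed mean of M-values (TMM) scaling, 973 genes were higher and 716 lower, against 1282 and 519 in CPM, and the ratios were -0.50 for Pou5f1, -0.28 for Sox2, 0.16 for Sall4 and 0.14 for Utf1. With KO and WT cells thinned to 5000 UMIs, in 1 random draw with no interval computed, the Sall4 ratio was 0.49. The feeder and primitive endoderm marker sums were higher in KO ESCs, as given above, and without cells carrying at least 3 markers of feeders, primitive endoderm or 2-cell-like cells the Sox2 ratio was -0.14.

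In the 48h-EpiLC library, Pou5f1 was again lower in KO cells, 1.33-fold (-0.41, -0.52 to -0.29), and Utf1 was again higher, 1.22-fold (0.29, 0.25 to 0.33). Sox2 was 1.35-fold higher in KO cells (0.44, 0.31 to 0.56). Sall4 did not differ beyond counting error (-0.0038, -0.13 to 0.13). None of the 4 passed 1.5-fold, against 9.01% of 9381 genes higher and 4.95% lower, with a median of 0.08 over all genes. After thinning to 5000 UMIs the Sox2 ratio was 0.59, just past 1.5-fold. This was 1 random draw with fewer UMIs and no interval, so the crossing is not read as a difference from 0.44.

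The ratio of KO to WT changed between the libraries for Sox2 by 0.62 on the log2 scale (approximate 95% counting interval 0.48 to 0.76) and for Sall4 by -0.27 (-0.43 to -0.10). For Pou5f1 the change was -0.0061 (-0.18 to 0.16) and for Utf1 it was 0.05 (-0.02 to 0.11). Under TMM scaling the change for Utf1 was 0.10 (0.03 to 0.16), for Sox2 0.67 and for Sall4 -0.22, and that of Pou5f1 (0.04, -0.12 to 0.21) still met 0. The ratio of the lines thus changed beyond counting error for Sox2 and Sall4 under both scalings and for Utf1 under TMM alone, and for Pou5f1 a change was not detectable at this depth. With at least 2 tdTomato UMIs asked of WT cells, 33 ESCs and 24 48h-EpiLCs were left. The Sall4 ratio of the lines was then 0.18 in ESCs and 0.49 in 48h-EpiLCs, the other direction of change. No interval was computed for so few cells, so no direction is read from them. Libraries are not replicated, so the intervals given for the changes do not test a stage effect.

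The ratios between the lines were also taken at like depth per cell. Each library was cut into 3 equal parts by UMIs per cell, here called the shallow, middle and deep tertiles. In each tertile Pou5f1 was lower in KO cells, with log2 ratios of -0.46 to -0.37 in ESCs and -0.57 to -0.28 in 48h-EpiLCs. Utf1 was higher in KO cells in each tertile, by 0.23 to 0.37 in ESCs and 0.22 to 0.37 in 48h-EpiLCs. Sox2 was lower in KO ESCs in each tertile, by -0.25 to -0.12, and higher in KO 48h-EpiLCs, by 0.36 to 0.66. The Sall4 ratio was 0.19 to 0.37 in the tertiles of the ESC library and -0.08 to 0.23 in those of the 48h-EpiLC library. The only interval of Pou5f1, Sox2 or Utf1 that reached 0 was that of Pou5f1 in the shallow tertile of ESCs, which held 74 WT cells.

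The stage comparison within lines gave the largest ratios. In WT cells Sox2 was 2.84-fold lower in 48h-EpiLCs than in ESCs (-1.503, -1.64 to -1.37) and Sall4 was 1.75-fold lower (-0.81, -0.97 to -0.66). Pou5f1 did not differ beyond counting error (0.13, -0.03 to 0.29), and Utf1 was 1.17-fold higher (0.23, 0.17 to 0.29). Sox2 and Sall4 were thus 2 of the 12.4% of 9242 genes that were more than 1.5-fold lower, and neither Pou5f1 nor Utf1 was among the 14.6% that were higher. The Sall4 ratio was -0.53 after thinning to 5000 UMIs, which is within 1.5-fold, in 1 random draw with no interval computed.

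In KO cells Sox2 was 1.85-fold lower in 48h-EpiLCs (-0.88, -0.93 to -0.84) and Sall4 was 2.11-fold lower (-1.08, -1.13 to -1.03). Pou5f1 was 1.09-fold higher (0.13, 0.06 to 0.19) and Utf1 was 1.21-fold higher (0.28, 0.26 to 0.30). Of 9478 genes, 11.1% were more than 1.5-fold lower, Sox2 and Sall4 among them, and 9.51% were higher. These are 1052 and 901 genes, and under TMM scaling the order was the other way round, with 945 lower and 1020 higher. The median over all genes was 0.03 in WT and -0.02 in KO cells. Sox2 thus lay further below its ESC level in WT than in KO cells, and Sall4 further below in KO cells. With at least 2 tdTomato UMIs asked of WT cells the order of the lines for Sall4 was the other way round (-1.39 in WT and -1.08 in KO), and that for Sox2 was kept (-1.72 and -0.88). These WT values rest on 33 ESCs and 24 48h-EpiLCs and have no interval, so no order is read from them.

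**Figure D2:**
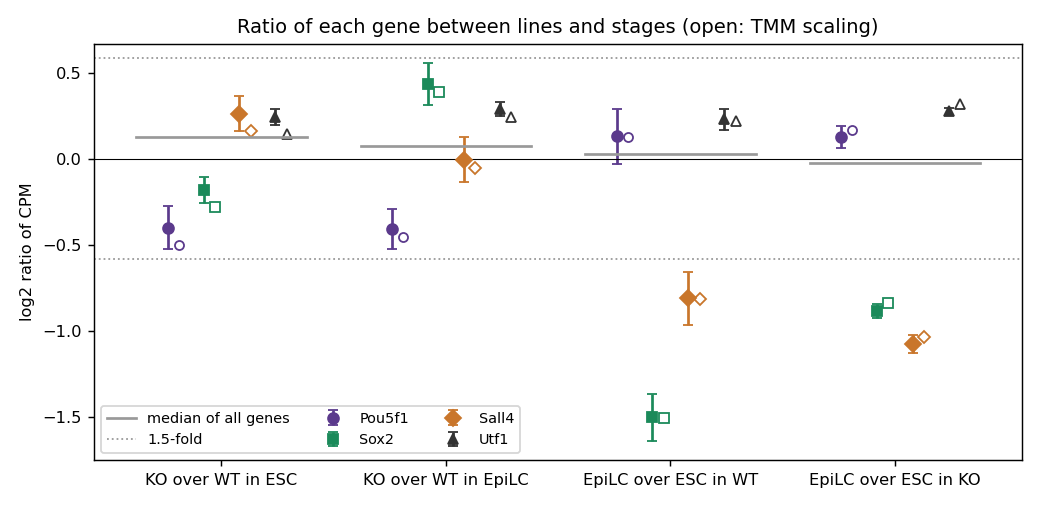
Log2 ratio of CPM (vertical axis) of Pou5f1, Sox2, Sall4 and Utf1 in the 4 comparisons, with bars for exact 95% counting intervals, open symbols for TMM scaling, grey bars for the median of all genes and dotted lines at 1.5-fold. Only Sox2 and Sall4 between stages lie past a dotted line, and Sox2 changes side of 0 between the KO and WT comparisons (-0.18 and 0.44).

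Pou5f1 and Sox2 UMIs were then set against each other in the same cells, which removes the scaling between classes. The share of Pou5f1 among the UMIs of the pair is not a ratio of molecules or proteins, since capture and mapping differ between genes, so only its differences are read. Pou5f1 made up 27.0% (25.2 to 28.9) of 614 Pou5f1 and 1658 Sox2 UMIs in WT ESCs and 24.1% (23.4 to 24.9) in KO ESCs. In 48h-EpiLCs it made up 53.5% (50.7 to 56.3) in WT and 39.1% (38.2 to 39.9) in KO cells. The cells assigned to neither line lay between the lines in both libraries, at 24.8% and 48.2%.

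Between the stages, the number of Pou5f1 UMIs per Sox2 UMI was 3.11-fold higher in WT 48h-EpiLCs (log2 1.64, 1.43 to 1.84) and 2.02-fold higher in KO 48h-EpiLCs (1.01, 0.93 to 1.09). Between the lines, it was 1.16-fold lower in KO ESCs (log2 -0.22, -0.36 to -0.07) and 1.79-fold lower in KO 48h-EpiLCs (-0.84, -1.01 to -0.68). In 48h-EpiLCs both genes contributed to the lower balance of KO cells, with Pou5f1 at 0.754 times and Sox2 at 1.35 times the WT level. The share by depth tertile was 49.8%, 57.1% and 52.3% in WT and 33.9%, 36.3% and 41.3% in KO 48h-EpiLCs, from shallow to deep. It was lower in KO cells in each tertile, and in KO cells it was higher in the deeper tertiles.

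Per cell, more Pou5f1 than Sox2 UMIs were found in 13.3% of WT and 11.3% of KO ESCs, and in 47.3% of WT and 29.0% of KO 48h-EpiLCs. At 5000 UMIs per cell these shares were 10.4% and 12.1% in ESCs, where the order of the lines was the other way round and no order is read, and 31.9% and 19.6% in 48h-EpiLCs. With all UMIs, cells with both genes were 64.8% of WT and 56.5% of KO ESCs and 53.8% of WT and 61.4% of KO 48h-EpiLCs. This was the most common state in each class with all UMIs, and cells with neither gene were then 3.22% to 7.34%. At 5000 UMIs per cell, cells with both genes were 28.8% of WT and 20.3% of KO ESCs. They were 11.7% of WT and 14.9% of KO 48h-EpiLCs. Cells with a Pou5f1 UMI and no Sox2 UMI were, at 5000 UMIs, 8.53% of WT and 10.1% of KO ESCs. In 48h-EpiLCs they were 29.4% of WT and 17.8% of KO cells. The most common state at 5000 UMIs was a Sox2 UMI without a Pou5f1 UMI in ESCs, at 43.8% and 43.0%. In 48h-EpiLCs it was no UMI of either gene, at 38.1% and 37.8%. The most common state thus depended on depth.

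Among cells with at least 5 UMIs of the pair, the median Pou5f1 share was 20.7% in 220 WT ESCs and 20.0% in 1333 KO ESCs. It was 50.0% in 103 WT and 33.3% in 1143 KO 48h-EpiLCs. The share ran from 16.7% at the 10th to 87.1% at the 90th percentile in WT 48h-EpiLCs, and from 11.1% to 66.7% in KO 48h-EpiLCs. Cells above 50% were 9.09% and 5.55% of WT and KO ESCs, and 43.7% and 23.3% of WT and KO 48h-EpiLCs. This minimum keeps deeper cells and cells rich in either gene, and the pooled share of these cells was below that of all cells in each class.

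**Figure D3:**
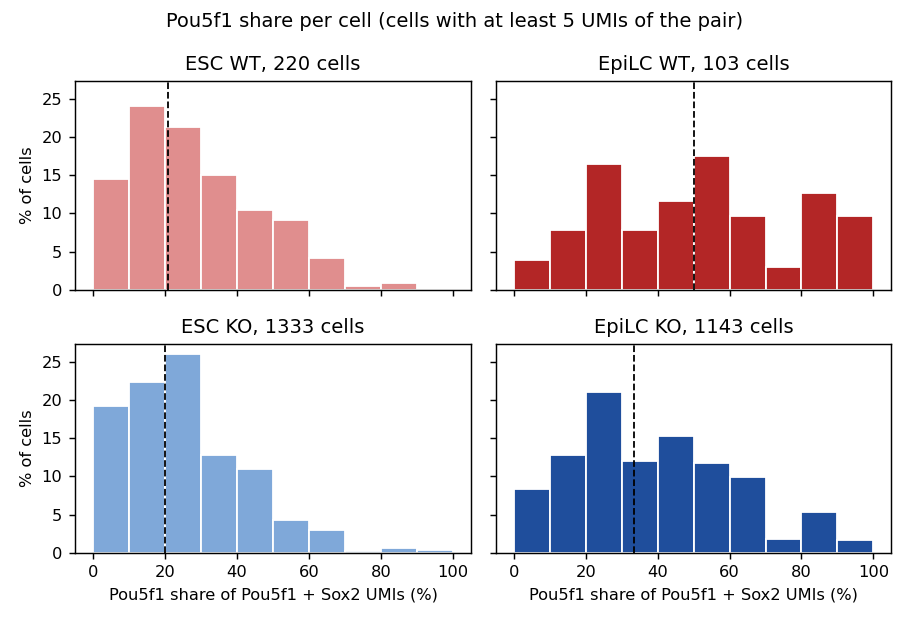
Distribution over cells of the Pou5f1 share of Pou5f1 and Sox2 UMIs (horizontal axis, percent, bins of 10) in cells with at least 5 UMIs of the pair, as percent of cells of each class (vertical axis), with a dashed line at the median. The medians were 20.7% and 20.0% in WT and KO ESCs and 50.0% and 33.3% in WT and KO 48h-EpiLCs.

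The spread of the share between cells was set against that of binomial sampling at the same UMI numbers. An approximate interval was computed only for cells with at least 5 UMIs of the pair. The variance was 1.46 times (1.19 to 1.74) the binomial variance in WT ESCs and 1.12 times (1.03 to 1.20) in KO ESCs. In 48h-EpiLCs it was 2.07 times (1.51 to 2.64) in WT and 1.505 times (1.38 to 1.63) in KO cells. A single WT ESC held 14 Pou5f1 and 3 Sox2 UMIs, the next highest Pou5f1 count in that class being 7, and without it the ratio was 1.21. For cells with at least 10 UMIs of the pair the ratios were 2.10, 1.20, 1.36 and 1.72 in the same order, from 47, 256, 12 and 190 cells, and that of WT ESCs was 1.17 without that cell. The ratios of KO ESCs and of KO 48h-EpiLCs were thus above 1 at both minimums. Without 1 cell that held 7 Pou5f1 and 3 Sox2 UMIs, that of KO ESCs was 1.11 and 1.16. Without 1 cell that held 10 Pou5f1 and 5 Sox2 UMIs, that of KO 48h-EpiLCs was 1.497 at the lower and 1.68 at the higher minimum. That of WT 48h-EpiLCs rests on the lower minimum, since the 12 cells of the higher one are too few to read, and that of WT ESCs rested in large part on 1 cell.

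The spread of each gene by itself was given as the variance over the mean, where 1 is the value for counting alone. At 5000 UMIs per cell the variance over the mean was 0.99 to 1.06 for Pou5f1 in 3 classes. In WT ESCs it was 1.42, and 1.13 without the cell named above. The variance over the mean was 1.25 to 1.34 for Sox2, 1.01 to 1.20 for Sall4 and 1.25 to 1.29 for Utf1. For the same relative variation between cells, this measure is larger at a higher mean. The mean was 0.38 to 0.52 UMIs for Pou5f1 and 3.24 to 4.74 UMIs for Utf1. The genes are therefore not ranked by spread. Pearson's r between any 2 of the 4 genes over thinned cells lay between -0.06 and 0.09 in the 4 classes, from 367 to 2968 cells. All these cells share a library within a class and the counts are sparse, so these values are given as a description.

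The cells of each class were then split, at 5000 UMIs per cell, by the presence of a UMI of a gene that marks a cell state. Zfp42 (Rex1), Nanog, Esrrb and Klf2 mark the naïve state, Pou3f1, Otx2, Fgf5 and Dnmt3b rise on the way to the formative state, and Ccnb1 is a gene of G2 and M phase. Sox2 was higher in cells with a Zfp42 UMI than in cells without one, by a log2 ratio of 0.43 (0.15 to 0.72) in WT ESCs, 0.68 (0.50 to 0.87) in KO ESCs and 0.29 (0.16 to 0.42) in KO 48h-EpiLCs. In WT 48h-EpiLCs, with 61 cells that held a Zfp42 UMI, it was 0.06 (-0.59 to 0.65). Pou5f1 did not differ beyond counting error in any of these splits, with log2 ratios from -0.07 to 0.26.

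The Pou5f1 share was accordingly lower in cells with Zfp42, at 24.5% against 31.3% in WT ESCs, 23.6% against 29.4% in KO ESCs and 34.2% against 40.0% in KO 48h-EpiLCs. It was 56.9% against 53.4% in WT 48h-EpiLCs. The cells without Zfp42 can hold other cell types, so the split was repeated without cells carrying at least 3 markers of feeders, primitive endoderm or 2-cell-like cells, which were 11 WT and 164 KO ESCs. The Sox2 ratio was then 0.38 (0.10 to 0.67) in WT ESCs and 0.43 (0.24 to 0.61) in KO ESCs, and the Pou5f1 share 24.8% against 30.9% in WT and 23.5% against 26.6% in KO ESCs. In KO ESCs both the Sox2 ratio and the gap in the share were thus smaller without those cells.

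The other naïve genes gave the same sign for Sox2 in ESCs. In cells with a Nanog UMI Sox2 was higher by 0.36 (0.11 to 0.61) in WT and 0.25 (0.14 to 0.36) in KO ESCs, with Esrrb by 0.37 and 0.25, and with Klf2 by 0.42 and 0.18. Pou5f1 was also higher in Nanog-positive ESCs, by 0.53 (0.11 to 0.94) in WT and 0.22 (0.02 to 0.41) in KO cells, and the Pou5f1 share was 27.6% with and 25.4% without Nanog in WT and 23.7% and 24.2% in KO ESCs. In cells with a Pou3f1 UMI Sox2 was lower by -0.34 (-0.65 to -0.04) in WT and -0.20 (-0.31 to -0.09) in KO ESCs. In KO 48h-EpiLCs it was lower in cells with Dnmt3b by -0.30 (-0.48 to -0.12), and higher in cells with Otx2 by 0.31 (0.15 to 0.46). In KO ESCs it was higher in cells with Otx2 by 0.31 (0.12 to 0.50), so that Otx2 and Pou3f1, both formative genes, went with opposite signs of Sox2 there. Cells with a Ccnb1 UMI had less Sox2 in WT ESCs, by -0.31 (-0.55 to -0.06), and not beyond counting error in KO ESCs (0.10, -0.02 to 0.23) or in 48h-EpiLCs of either line (0.10 in WT and -0.12 in KO). Cells with and without a Ccnb1 UMI numbered 304 and 130 in WT and 2323 and 632 in KO ESCs. They numbered 249 and 118 in WT and 2317 and 651 in KO 48h-EpiLCs. Most cells thus held it, and the split does not set G2 and M cells apart from the others. The splits by these genes were repeated in ESCs without cells carrying markers of other types, an alternative added after the data had been seen. In KO ESCs the Sox2 ratio was then 0.07 (-0.06 to 0.20) with Klf2 and the Pou5f1 ratio 0.20 (-0.0079 to 0.40) with Nanog, so that both intervals reached 0. The Sox2 ratio stayed on the same side of 0 with its interval for Nanog (0.35 in WT and 0.21 in KO), Esrrb (0.36 and 0.22) and Pou3f1 (-0.39 and -0.26). Sall4 was higher in Zfp42-positive KO ESCs by 0.29 (0.11 to 0.47), and Utf1 by 0.26 (0.17 to 0.35), and in WT ESCs both were near 0 (0.01 and 0.04) with wide intervals. Without cells carrying markers of other types, the Sall4 ratio in KO ESCs was 0.44 (0.22 to 0.66) and the Utf1 ratio 0.11 (0.01 to 0.20).

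**Figure D4:**
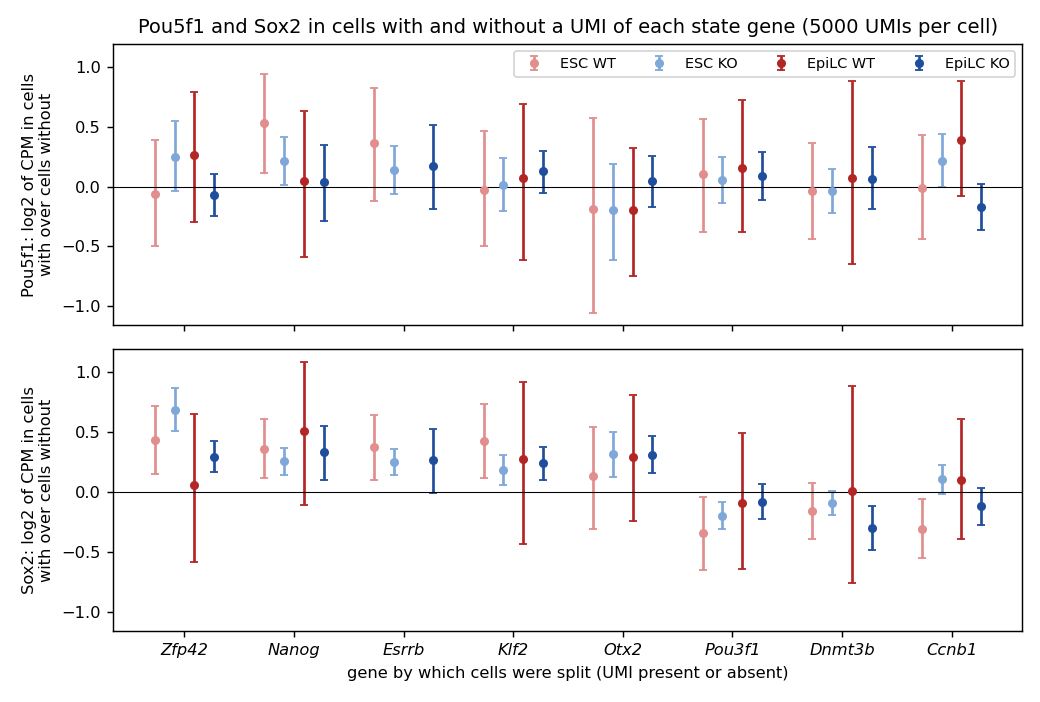
Log2 ratio of Pou5f1 (upper panel) and Sox2 (lower panel) CPM in cells with over cells without a UMI of the gene on the horizontal axis, in the 4 classes at 5000 UMIs per cell, with bars for exact 95% counting intervals. Splits with under 20 cells on a side are not drawn, nor is Fgf5. Sox2 was above 0 in Zfp42-positive ESCs of both lines (0.43 and 0.68). The Pou5f1 intervals there met 0, at -0.06 (-0.49 to 0.39) in WT and 0.25 (-0.03 to 0.54) in KO ESCs.

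The genes around this circuit were read from fixed lists. Of 5 genes known as targets of OCT4 and SOX2 together, 3 were more than 1.5-fold lower and none higher in KO than in WT ESCs, against 5.60% and 13.8% of all genes, with a list median of -0.59 against 0.13 over all genes. They were Fgf4, a growth factor that primes exit from the naïve state (65.3 against 143 CPM, log2 -1.14), Fbxo15 (35.4 against 63.0 CPM, -0.83) and Nanog (56.1 against 84.5 CPM, -0.59). In 48h-EpiLCs 2 of 5 were lower, Fgf4 (54.7 against 101 CPM, -0.89) and Nanog (17.2 against 27.5 CPM, -0.67), with a median of -0.33 against 0.08 and 4.95% of all genes lower. Zscan10, named after its values were seen, was higher in KO cells within 1.5-fold, by 0.43 in ESCs and 0.40 in 48h-EpiLCs, and the Utf1 ratio had that sign too. The targets of the pair therefore did not share 1 direction between the lines. Between stages, Fbxo15 and Nanog were lower in both lines, where 12.4% (WT) and 11.1% (KO) of all genes were. Lefty1, an inhibitor of Nodal signalling, was 6.33-fold higher in WT and 5.26-fold higher in KO cells, where 14.6% and 9.51% of all genes were higher.

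Of 16 partners and other pluripotency factors, a list that holds naïve as well as general factors, 15 passed 5 CPM on average. In KO against WT ESCs, 1 was higher (Zfp42, 603 against 304 CPM, log2 0.99) and 3 were lower (Klf4 -0.75, Tcf7l1 -0.68 and Nanog -0.59), with a list median of -0.20, where 13.8% of all genes were higher and 5.60% lower with a median of 0.13. In 48h-EpiLCs 3 were higher, Zfp42 (97.1 against 37.5 CPM, 1.37), Klf5 (0.60) and Esrrb, and 3 were lower, Tcf7l1, Nanog and Klf4, with a median of -0.08, where 9.01% of all genes were higher and 4.95% lower with a median of 0.08. Between stages none was higher and 8 were lower in WT cells (median -0.73), against 14.6% and 12.4% of all genes (median 0.03). In KO cells none was higher and 9 were lower (median -0.62), against 9.51% and 11.1% of all genes (median -0.02). The largest were the naïve factors Klf4 (-4.18 in WT and -4.22 in KO), Esrrb (-3.78 and -2.32), Zfp42 (-3.02 and -2.63) and Klf5 (-2.88 and -2.49), each with a larger ratio than that of Sox2 or Sall4.

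Of 17 paralogues of the POU, SOX and SALL families, 10 passed 5 CPM on average in each comparison. In KO cells Sox11, a SOX factor of neural progenitors, was lower at both stages (14.1 against 42.4 CPM in ESCs, -1.58, and 27.9 against 80.1 CPM in 48h-EpiLCs, -1.52). Sox3, a close relative of Sox2, was at 12.1 against 23.6 CPM in KO and WT 48h-EpiLCs (-0.96), and Sall2 at 12.8 against 22.3 CPM (-0.81). In all, 1 paralogue was higher and 3 were lower in KO cells of either library, with list medians of -0.11 and -0.23. The higher one was Sox15, under 20 CPM in each class and named after its values were seen. It was at 14.8 against 9.42 CPM in KO and WT ESCs (0.65) and 11.4 against 2.89 CPM in 48h-EpiLCs (1.98). Of all genes, 13.8% were higher and 5.60% lower in ESCs, and 9.01% and 4.95% in 48h-EpiLCs. Between stages, 6 paralogues were higher and 2 lower in WT cells (median 0.88), against 14.6% and 12.4% of all genes. In KO cells 5 were higher and none lower (median 0.62), against 9.51% and 11.1%. Pou3f1, the POU factor of the formative state, was 6.40-fold higher in WT and 4.85-fold higher in KO 48h-EpiLCs, while the ratio of its relative Pou5f1 was 1.10 in WT and 1.09 in KO cells. Sall2 was higher in 48h-EpiLCs by 4.91-fold in WT and 7.40-fold in KO cells, and Sox3 by 2.69-fold and 2.85-fold, although both stayed in KO cells under the 20 CPM asked of named genes and are given here after their values were seen. Sox11 was higher by 1.89-fold and 1.97-fold, and Sox12 by 1.86-fold and 1.60-fold.

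Genes with the most similar profile over the 4 classes were sought among 5572 others with a mean of at least 20 CPM, by the distance between log2 CPM values centred on their mean. The nearest to Pou5f1 were Tra2b (324, 249, 353 and 269 CPM in WT ESCs, KO ESCs, WT 48h-EpiLCs and KO 48h-EpiLCs, distance 0.02), Abhd10, Eci1, Snrpf and Mthfd1l. The nearest to Sox2 were Ltbp4 (136, 120, 47.4 and 66.7 CPM, distance 0.04), D230025D16Rik, Ehmt2, Tns3 and Senp3. The nearest to Sall4 were Rest (497, 549, 272 and 287 CPM, distance 0.11), Picalm, Morf4l2, Polr2a and N4bp3, and to Utf1 they were Elp6 (26.6, 31.2, 31.0 and 37.6 CPM, distance 0.02), Pcgf6, Ormdl2, Zmynd19 and Mrpl2. None of these genes is a member of the fixed lists, and 4 points per gene give little to tell profiles apart.

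Over single cells of a library at 5000 UMIs, the correlations of the 4 genes with other genes were weak. The highest r for Sox2 in ESCs was with Zfp42 (0.14), followed by L1td1 (0.12) and Dppa5a (0.11), and that for Sall4 was also with Zfp42 (0.13). In 48h-EpiLCs Sox2 was highest with Hspb1 (0.15) and Dnmt3l (0.12), and Zfp42 (0.12) and Klf2 (0.11) were among its first 5. The highest r for Utf1 was 0.21 in ESCs, with Mkrn1, and for Pou5f1 it was 0.08, with Set. The lowest in ESCs were genes of fibroblast-like cells such as Timp2 and S100a4 for Pou5f1, Sox2 and Utf1, down to -0.24 for Cald1 with Utf1. These cells mix both lines and, in the ESC library, feeder-marker cells.

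The genes around Pou5f1 were compared between the lines in the same way. Of 24 neighbours within 500 kb with at least 20 CPM in a class, 7 were more than 1.5-fold higher and none lower in KO ESCs, and 4 were higher and 3 lower in KO 48h-EpiLCs, with medians of 0.08 at both stages. Of all genes with a mean of at least 5 CPM, 13.8% were higher and 5.60% lower in KO ESCs, and 9.01% and 4.95% in KO 48h-EpiLCs. The extremes are named after their values were seen. The MHC class I gene H2-D1 was at 31.6 against 11.4 CPM in KO and WT ESCs (log2 1.48) and 41.2 against 19.0 CPM in 48h-EpiLCs (1.12). Ier3 was at 34.4 against 132 CPM in KO and WT 48h-EpiLCs (-1.94). The Pou5f1 ratio was below those of 24 of 24 neighbours in ESCs and of 20 of 24 in 48h-EpiLCs. Of 5 such neighbours of Utf1 and 1 of Sall4, none passed 1.5-fold, and Sox2 had none.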

How the data were processed

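The authors counted UMIs per gene and barcode with Cell Ranger (version 3.0.2, named in the submitters' processing notes with mm10) on a reference to which the tdTomato coding sequence had been added, and the deposited values were these raw counts, with no normalisation. Whether counting used the strand of the reads is not given in the sources used here. The libraries held 144584246 (ESC) and 163771168 (48h-EpiLC) UMIs and shared 41 barcode sequences, 26 of them in kept cells of both. UMIs were summed per library and line and scaled to CPM. Cells are not replicates, so no p-value is given, and exact Poisson, binomial and Clopper-Pearson 95% intervals cover counting error only, with a normal approximation for differences of log2 ratios. Counts past 1.5-fold were taken over genes with a mean of at least 5 CPM and a UMI in both classes. Genes of the lists were named if past 1.5-fold with at least 20 CPM in a class, up to 4 per comparison, by size. Coverage of the ratio intervals was checked only on counts simulated as Poisson draws. That check cannot show coverage where cells spread beyond counting.

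The members, lists and rules were chosen with earlier results of these data known. Doublets were kept, because the automatic threshold of scrublet (scanpy 1.11.5) marked 0 of 11054 and 1 of 9400 cells, and the top 10% of scores were left out as an alternative. TMM factors came from edgeR 4.0.16 on the summed counts. Other steps used Python 3.11.15, numpy 2.4.6, scipy 1.17.1 and pandas 2.3.3. Positions and transcripts were from GENCODE M21 (GRCm38), in which 32158 of 32286 features were found, and promoters from RefSeq on GRCm38.p6, which held 3 of the 4 genes.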

Additional observations from a re-analysis of the deposited data

Results flagged for a closer look

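Sox2 differed in opposite directions between the lines at the 2 stages. The log2 ratio of KO over WT was -0.18 in ESCs, from 237 and 269 CPM, and 0.44 in 48h-EpiLCs, from 129 and 95.02 CPM. It was singled out because both counting intervals lay on 1 side of 0 and on opposite sides. With 1 library per stage the difference was not tested, and its counting interval of 0.48 to 0.76 covers sampling of UMIs only. The sign was kept in each depth tertile and under the 10 alternative settings, which gave -0.42 to -0.14 in ESCs and 0.39 to 0.59 in 48h-EpiLCs.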

How the results depend on the processing

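No paired analysis was possible because each stage was 1 library and the labels give no replicate numbers, and there was no replicate to leave out. Of 220 recomputed values, 183 stayed within the counting interval of the value reported or within 1.5 times the count, and 37 did not; no ratio whose interval excluded 0 changed sign. No interval was computed for the recomputed values, and the causes of these shifts were not tested.

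With TMM scaling, KO over WT was -0.28 for Sox2, 0.16 for Sall4 and 0.14 for Utf1 in ESCs and 0.24 for Utf1 in 48h-EpiLCs, and the stage ratio in KO cells was -0.84 for Sox2 and 0.32 for Utf1. With cells thinned to 5000 UMIs, KO over WT was 0.49 for Sall4 in ESCs and 0.59 for Sox2 in 48h-EpiLCs, the stage ratio was -1.66 for Sox2 and -0.53 for Sall4 in WT and -0.82 for Sox2 in KO cells, and the Pou5f1 share of KO 48h-EpiLCs was 37.8%, as against 37.9% with equal weight per cell. Without cells carrying markers of other types, the stage ratio in KO cells was -0.93 for Sox2 and 0.25 for Utf1. With at least 4 Y-linked UMIs for KO, the stage ratio of Utf1 was 0.30 and the Pou5f1 share of KO ESCs 25.1%.

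An alternative added after the data had been seen asked for at least 2 tdTomato UMIs in WT cells, which left 33 ESCs and 24 48h-EpiLCs. KO over WT was then -0.67 for Pou5f1, past 1.5-fold, and -0.42 for Sox2 in ESCs, and -0.26 for Pou5f1 and 0.49 for Sall4 in 48h-EpiLCs. The stage ratio in WT cells was -0.29 for Pou5f1, -1.72 for Sox2, -1.39 for Sall4 and 0.29 for Utf1, and the Pou5f1 share of WT 48h-EpiLCs was 50.6%.

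With no filter on low genes, the genes more than 1.5-fold higher and lower numbered 3748 and 2648 for KO over WT in ESCs, 2742 and 2782 in 48h-EpiLCs, 3557 and 2961 between stages in WT, and 3675 and 4089 in KO cells. With at least 10 UMIs of the pair, the variance over binomial was 2.10 in WT ESCs and 1.36 and 1.72 in WT and KO 48h-EpiLCs. The WT classes, with 614 and 680 Pou5f1 UMIs, set the width of the line intervals.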
